A study of Mus musculus with 6 samples.

Results

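10 genes of the signalling by which luminal factors from the testis maintain the initial segment, the most proximal region of the epididymis, were examined in the whole epididymis of WT and Ocln-KO mice. They were chosen by symbol for their known roles, by a rule that uses no measured value but was set with earlier results of these data known. They comprise the luminal ligand gene Nell2, the receptor gene Ros1, the phosphatase gene Ptpn6, the transcription factor genes Etv1, Etv4 and Etv5, the feedback genes Dusp6 and Spry4, and the target genes Ovch2 and Ggt1. These are 10 of the 57127 genes listed, and all 10 had enough counts to be tested. Ocln-KO mice carry a germline deletion of Ocln, which encodes occludin, a transmembrane protein of epithelial tight junctions. Both genotypes were adult C57BL/6 males, the Ocln-KO mice (Ocln-/-) being bred from heterozygous parents and the WT mice carrying no deletion. RNA of the whole organ was depleted of rRNA and sequenced, with 3 libraries per genotype. The study's methods speak both of separate extraction from pairs of mice and of pooled RNA, so n counts libraries, and p-values measure the spread between these libraries.

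NELL2 is secreted by testicular germ cells, travels in the luminal fluid with its cofactor NICOL1, and binds the receptor tyrosine kinase ROS1 on principal cells of the initial segment. ROS1 acts through the ERK cascade, SHP-1, the product of Ptpn6, restrains it, and genes of the ETV family, DUSP6 and Sprouty proteins are classical outputs or brakes of ERK signalling. The serine protease OVCH2 is made in the initial segment under this control and takes part in the processing of the sperm surface protein ADAM3, while GGT1, a gamma-glutamyltransferase of glutathione metabolism, depends on luminal testicular factors in the proximal epididymis.

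The libraries held between 30646424 and 38870780 counts, so that 1 count equalled between 0.0267 and 0.0314 CPM (counts scaled to a common library size) after scaling by TMM factors. Ocln had 85.9, 78.8 and 91.8 CPM in the WT libraries and 15.1, 15.3 and 14.9 CPM in the Ocln-KO libraries. Genotypes were compared gene by gene with the quasi-likelihood test of edgeR, and FDR stands for its p after Benjamini-Hochberg adjustment over all genes tested. Ocln fell by 2.50 on the log2 scale (standard error, SE, 0.09, FDR = 0.000108 in edgeR). On the first principal component of log2 CPM, which held 47.2% of the variance, Ocln-KO replicate 3 lay at -86.3, apart from the other Ocln-KO libraries at -17.7 and -29.1 and the WT libraries between 37.0 and 52.8. The listed markers of the initial segment were unevenly represented. Rnase9, which encodes a secreted protein of the ribonuclease family, had 2676 ± 545 CPM in WT (SD, n = 3), but Adam28, Cst11, Cst12, Lcn9 and Rnase10 had too few counts to be tested, with at most 20 in any library, and Cst8 and Lcn8 had at most 0.646 and 2.30 CPM in WT. Gapdh and Ppia, which all cells use and which were chosen after their values were seen, also had only 9.92 ± 1.46 and 2.83 ± 0.18 CPM in WT (SD, n = 3), so a low count of a gene in these files cannot be read as its absence, and the genes are described here by name rather than as a measure of the segment.

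The stretches just before the start sites of Dusp6 and Ovch2 are shown because these genes stand for the feedback and the target level of the pathway, and because ETV factors of the PEA3 group bind sites with an ETS core. Each stretch is the 250 bases immediately upstream of a RefSeq transcript's start (GRCm38.p6), which for both genes is also the edge of the RefSeq gene span, 5′ to 3′ on the gene's strand, and capitals mark AGGAAG, the hexamer known as the PEA3 motif, on either strand (CTTCCT on the opposite one).
Dusp6 chr10:99262981-99263230, plus strand: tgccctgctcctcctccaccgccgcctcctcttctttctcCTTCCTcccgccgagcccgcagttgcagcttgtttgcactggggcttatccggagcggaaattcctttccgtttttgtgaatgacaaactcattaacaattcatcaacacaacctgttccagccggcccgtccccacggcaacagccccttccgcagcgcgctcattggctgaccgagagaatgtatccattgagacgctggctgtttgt
Ovch2 chr7:107801180-107801429, minus strand: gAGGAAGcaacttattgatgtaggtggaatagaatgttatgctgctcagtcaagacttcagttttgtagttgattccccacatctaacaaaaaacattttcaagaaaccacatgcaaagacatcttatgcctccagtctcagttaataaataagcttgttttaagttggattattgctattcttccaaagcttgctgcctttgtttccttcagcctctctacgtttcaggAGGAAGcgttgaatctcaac
The Dusp6 stretch held 1 match on the opposite strand, 210 bases before the start, and the Ovch2 stretch held 2 matches on the gene strand, 249 and 20 bases before the start. RefSeq windows of this kind were at hand for 7 of the 10 genes. Ptpn6 held 1 match, Etv1 and Ggt1 held 1 in one of their alternative windows, and Etv5 and Ros1 held none. Because the gene spans take in further transcripts, 154 bases of the Ros1 window and all bases of the 4 Ggt1 windows and of 1 window each of Etv1 and Etv5 lie within them. Of all 32851 windows of this length searched, 29.5% held the hexamer on either strand, so a match is a description of the letters and not of a bound site.

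None of the 10 genes passed an FDR under 0.05 in edgeR, where 8.95% of the 19691 genes tested did, 5.04% being lower and 3.91% higher in Ocln-KO. Nor did any pass with a 2-fold threshold added, where 3.19% of all genes did. DESeq2 and limma-voom also called 0 of the 10. At an unadjusted p under 0.05 there was 1 gene, Nell2, against 29.1% of all genes. The log2 fold changes (Ocln-KO minus WT) were negative for 5 genes and positive for 5, from -0.80 for Nell2 to 1.49 for Etv4, with a median of 0.05 beside 0.01 over all genes tested. The genotypes did not overlap for Nell2, which was lower in each Ocln-KO library than in each WT library, and for Dusp6, which was higher, and they overlapped for the other 8. Over all genes tested, 19.4% did not overlap with Ocln-KO lower and 16.9% with Ocln-KO higher, 36.3% in all. In whole-organ RNA of this kind, fewer cells of a type and less RNA per cell cannot be told apart.

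**Figure D1:**
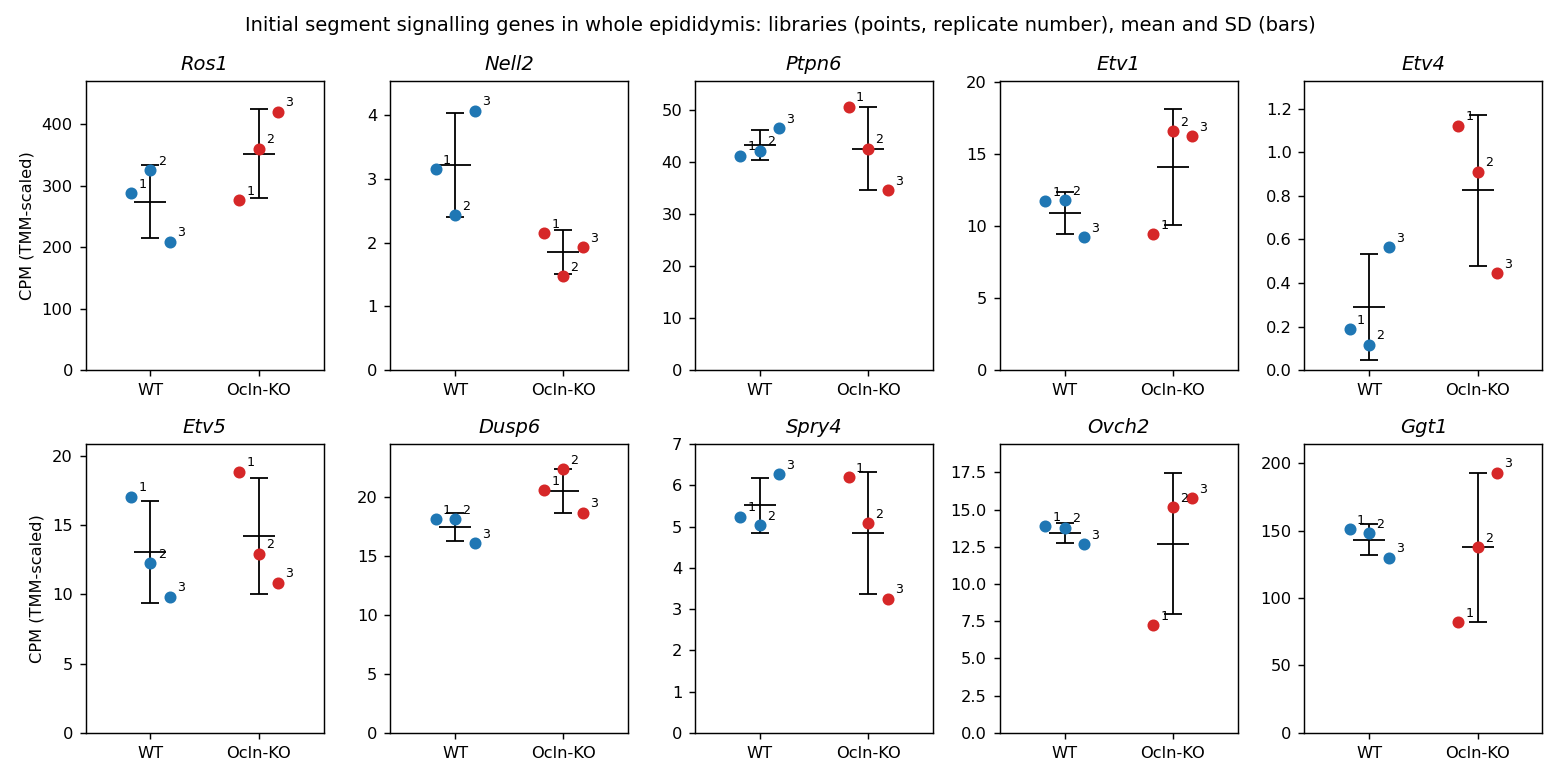
CPM of each of the 10 signalling genes in the 3 WT and 3 Ocln-KO libraries, 1 panel per gene, with points numbered by replicate, with the mean and SD of each genotype and each y axis starting at 0. The genotypes separate for Nell2 and Dusp6, and Ocln-KO replicate 1 is the lowest library for Ovch2 and Ggt1.

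On the ligand side, Nell2 (chr15:95219440-95528796) had the largest negative value of the 10 genes. The values are of RNA from the whole epididymis, while testis RNA and luminal NELL2 protein were not examined here. WT replicates 1, 2 and 3 had 3.15, 2.43 and 4.07 CPM, and Ocln-KO replicates 1, 2 and 3 had 2.15, 1.48 and 1.92 CPM. Each Ocln-KO library lay below each WT library, but the gap between WT replicate 2 and Ocln-KO replicate 1 was small. The log2 fold change was -0.80 (SE 0.30, 95% interval -1.49 to -0.11, FDR = 0.127 in edgeR). Over 13 alternative analyses it ran from -0.96 to -0.59 and the FDR from 0.0962 to 0.336. The gene of its cofactor, listed under its older symbol Gm1673 (Nicol1, chr5:33983433-33985009), had 10.5, 6.92 and 12.8 CPM in the WT libraries and 6.58, 5.40 and 4.26 CPM in the Ocln-KO libraries. Here too no Ocln-KO library reached the lowest WT library. The log2 fold change of Gm1673 was -0.90 (SE 0.27, 95% interval -1.51 to -0.28, FDR = 0.0742 in edgeR). DESeq2 gave an FDR of 0.0165, the only value under 0.05 among 13 alternatives, which ran up to 0.223.

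Since NELL2 reaches the lumen from germ cells, markers of germ cells and of neurons, where Nell2 is also expressed, were read in the same libraries. The summed CPM of 8 germ cell markers, such as the protamine genes Prm1 and Prm2, was 305 to 387 in WT and 430, 434 and 100 in Ocln-KO replicates 1, 2 and 3. Ocln-KO replicate 3, the lowest of the 6 for germ cell markers, was also the lowest for Gm1673, at 4.26 CPM, but not for Nell2. Without Ocln-KO replicate 3 the log2 fold change of Nell2 was -0.83 and that of Gm1673 was -0.75. None of the 8 germ cell markers passed an FDR under 0.05 in edgeR or an unadjusted p under 0.05. The summed level of 8 neuron and nerve markers ran from 11.8 to 16.6 CPM in WT libraries and from 14.4 to 15.2 CPM in Ocln-KO libraries, and 4 of the 8, Tubb3, Elavl4 and Snap25 among them, had too few counts to be tested. Most of this sum was Syt1, a synaptic vesicle gene, at 9.05 to 12.1 CPM in WT and 9.35 to 11.3 CPM in Ocln-KO. Of the 4 tested, 1 passed: Th, the tyrosine hydroxylase gene of catecholamine synthesis, fell from 0.855, 0.469 and 0.781 CPM in WT to at most 3 counts in any Ocln-KO library (FDR = 0.0307 in edgeR), the direction of the Nell2 values. The part of either cell type in the Nell2 values was not tested.

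Ros1 (chr10:52044863-52195398), the receptor gene, was abundant in both genotypes. Its CPM values were 288, 325 and 208 in the WT libraries and 276, 360 and 420 in the Ocln-KO libraries. Ocln-KO replicate 1 lay within the WT range, and replicates 2 and 3 lay above it. The mean level was 274 ± 59.5 CPM for WT against 352 ± 72.3 CPM for Ocln-KO (SD, n = 3 each). On the log2 scale Ocln-KO minus WT was 0.36 (SE 0.20, 95% interval -0.10 to 0.82, FDR = 0.268 in edgeR). Over 13 alternatives the log2 fold change of Ros1 ran from 0.20 without WT replicate 3 to 0.52 without Ocln-KO replicate 1, where the FDR, 0.119, was the lowest. Without Ocln-KO replicate 3 it was 0.22.

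Ptpn6 (chr6:124720707-124738709), which encodes the phosphatase SHP-1, had 41.1, 42.1 and 46.4 CPM in the WT libraries and 50.6, 42.5 and 34.5 CPM in the Ocln-KO libraries. The Ocln-KO libraries lay above, within and below the WT range in turn. Its log2 fold change was -0.02 (SE 0.14, 95% interval -0.35 to 0.30, FDR = 0.933 in edgeR), and its sign turned under total-count scaling, to 0.06. Ptpn6 is also a gene of blood cells, and the summed CPM of 16 leukocyte markers was 174 to 202 in WT and 225, 278 and 435 in Ocln-KO replicates 1, 2 and 3. Of the 11 leukocyte markers tested, all had a positive log2 fold change, with a median of 0.77 beside 0.01 over all genes tested, and 9 had an unadjusted p under 0.05. The test was passed by 1 of them: Ptprc, the CD45 gene, rose by 1.54 on the log2 scale (SE 0.19, FDR = 0.0110 in edgeR). Ptpn6 was lowest in Ocln-KO replicate 3, where the leukocyte markers were highest. Whether leukocytes contributed to the Ptpn6 values was not tested. The annotation places 195 exonic bases of Ptpn6 opposite the antisense gene Gm20531, and the strand setting of the counting is not given in the sources used here, so reads of these could not be separated.

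Of the ETV genes, Etv5 (chr16:22381313-22439570) was the most abundant per exon length. The WT libraries had 17.1, 12.2 and 9.83 CPM and the Ocln-KO libraries 18.9, 12.9 and 10.8 CPM. The ranges overlapped over most of their length, and the log2 fold change was 0.12 (SE 0.26, 95% interval -0.49 to 0.73, FDR = 0.800 in edgeR). Etv1 (chr12:38780082-38870483) had 11.7, 11.8 and 9.21 CPM in the WT libraries and 9.44, 16.6 and 16.2 CPM in the Ocln-KO libraries. Ocln-KO replicate 1 lay at the bottom of the WT range, while replicates 2 and 3 lay above each WT library. For Etv1 the log2 fold change was 0.37 (SE 0.23, 95% interval -0.17 to 0.91, FDR = 0.336 in edgeR). It was 0.60 without Ocln-KO replicate 1, with an FDR of 0.0653, the lowest for any of the 10 genes under any alternative, and 0.26 without Ocln-KO replicate 3.

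Etv4 (chr11:101769747-101785310) rested on few counts. There were 7, 4 and 21 counts in the WT libraries and 36, 29 and 15 in the Ocln-KO libraries, or 0.187, 0.117 and 0.565 CPM against 1.12, 0.910 and 0.444 CPM. Only WT replicate 3 and Ocln-KO replicate 3 overlapped. The log2 fold change was 1.49 with a standard error of 0.67 and a 95% interval from -0.06 to 3.04 (FDR = 0.187 in edgeR), so a difference of this size was not resolved with these counts and libraries. Without WT replicate 3 it was 2.40, with an FDR of 0.133, and over the 12 alternatives in which it could be tested the lowest value was 1.12.

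The feedback gene Dusp6 (chr10:99263231-99267489), which encodes a phosphatase that removes phosphate from ERK, had 18.1, 18.1 and 16.1 CPM in WT libraries and 20.6, 22.3 and 18.6 CPM in Ocln-KO libraries. Each Ocln-KO library lay above each WT library, by a narrow margin in replicate 3. Its mean rested on a small spread, 17.4 ± 1.17 CPM for WT against 20.5 ± 1.85 CPM for Ocln-KO (SD, n = 3 each). The log2 fold change was 0.24 (SE 0.12, 95% interval -0.04 to 0.51, FDR = 0.230 in edgeR). Spry4, a Sprouty inhibitor of receptor tyrosine kinase signalling, had 5.24, 5.04 and 6.27 CPM in WT libraries and 6.20, 5.08 and 3.26 CPM in Ocln-KO libraries. All but Ocln-KO replicate 3 lay within the WT range. The log2 fold change of Spry4 was -0.19 (SE 0.26, 95% interval -0.80 to 0.42, FDR = 0.683 in edgeR), and it was 0.03 without Ocln-KO replicate 3.

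**Figure D2:**
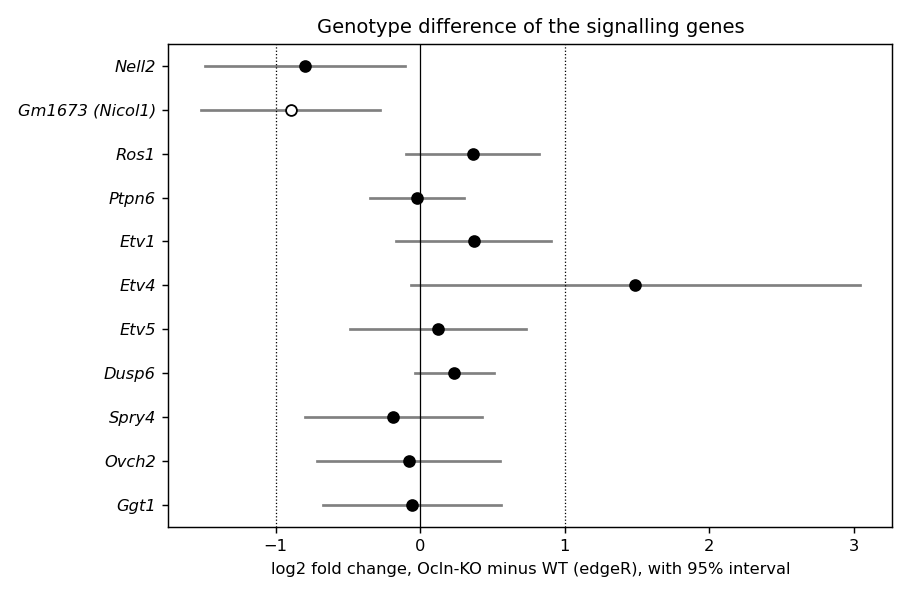
Log2 fold change (Ocln-KO minus WT) of the 10 signalling genes (filled points) and of Gm1673 (open point) with its 95% interval from edgeR, and dotted lines at a 2-fold difference either way. The intervals of Nell2 and Gm1673 lie below 0, and that of Etv4, from -0.06 to 3.04, is the widest.

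Both target genes had close values in the WT libraries and wide ones in the Ocln-KO libraries. Ovch2 (chr7:107781544-107801179) had 13.9, 13.8 and 12.7 CPM in WT libraries, and 7.23, 15.2 and 15.7 CPM in Ocln-KO replicates 1, 2 and 3. Ocln-KO replicate 1 lay below each WT library and the other two Ocln-KO libraries lay above each of them. The log2 fold change was -0.08 (SE 0.27, 95% interval -0.71 to 0.55, FDR = 0.876 in edgeR). Its sign turned without Ocln-KO replicate 1, to 0.21 (FDR = 0.355), and without Ocln-KO replicate 3 it was -0.26 (FDR = 0.591).

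Ggt1 (chr10:75561076-75586193) had 151, 148 and 130 CPM in WT libraries and 81.9, 138 and 193 CPM in Ocln-KO libraries. Its 3 Ocln-KO libraries lay below, within and above the WT range. The mean level was 143 ± 11.5 CPM for WT against 138 ± 55.5 CPM for Ocln-KO (SD, n = 3 each), and the difference on the log2 scale was -0.06 (SE 0.27, 95% interval -0.67 to 0.56, FDR = 0.912 in edgeR). It was 0.21 without Ocln-KO replicate 1 (FDR = 0.401), -0.38 without Ocln-KO replicate 3 (FDR = 0.255) and 0.03 under total-count scaling. Of the other gamma-glutamyltransferase genes, Ggt5 and Ggt7 had log2 fold changes of 0.65 and -0.66 (FDR = 0.1995 and 0.187 in edgeR), and Ggt6 had too few counts to be tested. Adam3, the sperm gene whose protein is processed with the help of OVCH2, had a log2 fold change of -0.16 (FDR = 0.877), and 0 of 4 sperm ADAM genes passed an FDR under 0.05 or an unadjusted p under 0.05 in edgeR's test.

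The low values of Ovch2 and Ggt1 in Ocln-KO replicate 1 were set beside other genes of the proximal epididymis, library by library. Against the WT mean, Ocln-KO replicate 1 had a log2 ratio of -0.89 for Ovch2, -0.80 for Ggt1, -0.82 for Rnase9 and -0.99 for Lcn5, a lipocalin gene of the caput. In Ocln-KO replicate 2 the same genes had ratios of 0.17, -0.05, 0.33 and 0.34, and in replicate 3 of 0.23, 0.43, 0.16 and 0.39. Other listed caput genes lay on both sides of the WT mean in Ocln-KO replicate 1. Adam7 had a log2 ratio of -0.56, and Crisp1 and Cst3 had 9957 and 166 CPM beside WT means of 14891 and 210 CPM. Gpx5 and Lcn2 lay above it: Gpx5 had a log2 ratio of 1.61, and Lcn2 had 159 CPM beside a WT mean of 113 CPM. Crisp1 was lower still in Ocln-KO replicates 2 and 3, at 9160 and 4439 CPM, so each Ocln-KO library lay below each WT library. Its log2 fold change was -0.92 (FDR = 0.0855 in edgeR). In the same 2 replicates Adam7 had log2 ratios of 0.32 and -0.22, and Cst3 had 199 and 207 CPM. Ros1, at 0.01 in Ocln-KO replicate 1, and Etv1, at -0.21, were less far from the WT mean in that library. Defb41 and Adgrg2, which encode a beta-defensin and an adhesion G protein-coupled receptor of the efferent ducts and proximal epididymis, had ratios of -0.31 and -0.10 in Ocln-KO replicate 1, against 3.41 and 2.05 in replicate 2 and 3.86 and 2.03 in replicate 3. How much of each epididymal region entered a library was not measured, and its part in these values was not tested.

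**Figure D3:**
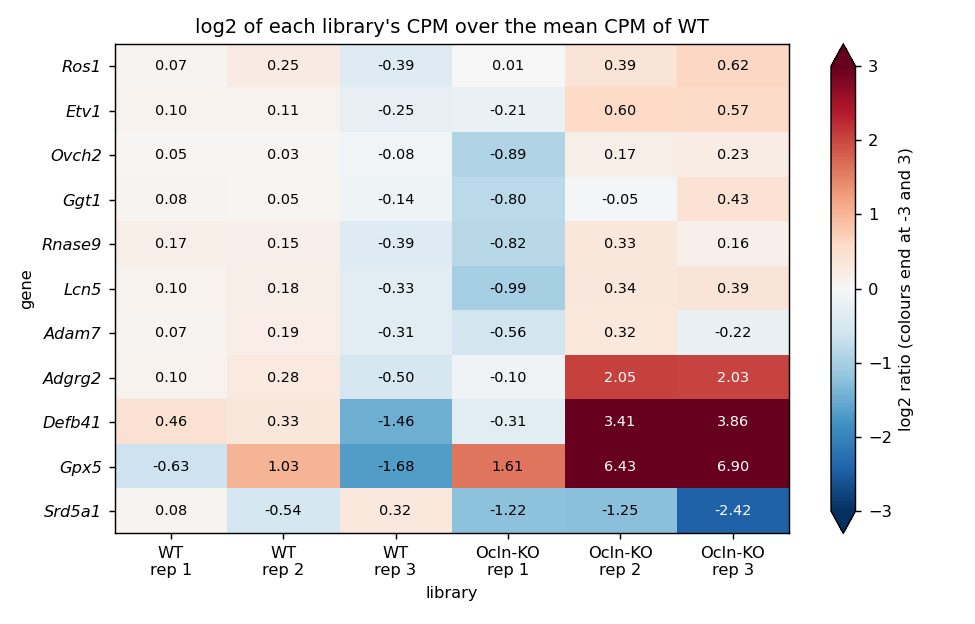
Log2 ratio of each library's CPM to the WT mean for Ros1, Etv1, Ovch2, Ggt1 and other genes of the proximal epididymis (rows) in the WT and Ocln-KO libraries (columns), with red above 0, blue below 0, and colours ending at 3 either way. Ocln-KO replicate 1 is below 0 for each gene shown except Ros1, at 0.01, and Gpx5. Gpx5 lies at 1.61 there and at 6.43 and 6.90 in Ocln-KO replicates 2 and 3.

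Among the listed genes of the initial segment, 6 could be tested. At an FDR under 0.05, 1 was lower and 0 higher in Ocln-KO, beside 5.04% lower and 3.91% higher of all genes tested. Srd5a1, which encodes a steroid 5-alpha-reductase that converts testosterone to dihydrotestosterone, had 39.3, 25.6 and 46.3 CPM in WT libraries and 15.9, 15.6 and 6.93 CPM in Ocln-KO libraries. The genotypes did not overlap, and Srd5a1 fell by 1.54 on the log2 scale (SE 0.34, FDR = 0.0355 in edgeR). The sense-overlapping gene Gm17108 shares 476 exonic bases with it. Of 7 caput genes tested, 2 were higher and 0 lower at that threshold. In edgeR 4 of the 7 had an unadjusted p under 0.05: Crisp1 was lower, and Defb41, Gpx5 and Lcn2 were higher. Gpx5, which encodes a secreted glutathione peroxidase of the caput, had 54.5, 172 and 26.3 CPM in WT libraries and 256, 7264 and 10039 CPM in Ocln-KO libraries. Each Ocln-KO library lay above each WT library, with 2 of them far above. Gpx5 rose by 6.12 on the log2 scale (SE 1.34, FDR = 0.0359), and Lcn2, which encodes an iron-binding lipocalin that is also made by neutrophils, rose by 1.02 (SE 0.23, FDR = 0.0362). These 3 calls were lost without any of the WT libraries and without Ocln-KO replicate 2, with FDRs up to 0.129 for Srd5a1, 0.140 for Gpx5 and 0.137 for Lcn2.

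Levels were compared between the 10 genes only per kilobase of union exon length. In WT, Ggt1 and Ros1 stood highest, at 42.0 ± 3.37 and 35.2 ± 7.66 CPM per kb (SD, n = 3 each), and their libraries overlapped. Ptpn6 followed at 15.4 ± 1.01 CPM per kb, then Ovch2 at 6.88 ± 0.338, Dusp6 at 5.56 ± 0.374, Etv5 at 3.18 ± 0.896 and Spry4 at 1.16 ± 0.139 CPM per kb, none of which overlapped its neighbours. Etv1 and Nell2 lay lower, at 0.821 ± 0.111 and 0.689 ± 0.175 CPM per kb, and overlapped each other. Etv4 was lowest of the 10, at 0.0934 ± 0.0777 CPM per kb. Beside the low counts of Gapdh and Ppia, the order of the genes with few counts may not be that of their RNA. In Ocln-KO, Ros1 had the highest mean, 45.3 ± 9.30 CPM per kb, with libraries from 35.5 to 54.0 that overlapped those of Ggt1, from 24.0 to 56.5.

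The wider pathway was read from 4 lists, together 55 gene symbols, chosen for their roles. Over all genes tested, 8.95% passed an FDR under 0.05 in edgeR, 29.1% had an unadjusted p under 0.05 and 36.3% did not overlap between genotypes. Of 11 tested partners close to the receptor, 0 passed an FDR under 0.05 in edgeR and 3 had an unadjusted p under 0.05: Gm1673, Ptpn11 and Frs2. Ptpn11, which encodes SHP-2, a phosphatase that promotes ERK signalling, had a log2 fold change of -0.26 (FDR = 0.0734), and Frs2, an adaptor of FGF receptors, had 0.29 (FDR = 0.107). Nell1, the homologue of Nell2, had too few counts to be tested, with at most 0.348 CPM in any library. The list's median log2 fold change was -0.08, beside 0.01 over all genes tested.

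Among the 8 FGF and EGF receptor genes, whose products also feed the ERK cascade, 2 rose and 0 fell in Ocln-KO. Egfr, the EGF receptor gene, had 36.6, 34.5 and 30.3 CPM in WT libraries and 55.6, 55.5 and 48.5 CPM in Ocln-KO libraries. No library overlapped, and Egfr rose by 0.65 on the log2 scale (SE 0.11, FDR = 0.0201 in edgeR). Fgfr2, an FGF receptor gene of epithelia, had 122, 125 and 117 CPM in WT libraries and 164, 158 and 191 CPM in Ocln-KO libraries. It too did not overlap and rose by 0.50 (SE 0.10, FDR = 0.0279). Its exons share 314 bases with the gene Ctbp2. The value furthest from 0 in this list was that of Erbb4, at -1.16 (FDR = 0.126), which was chosen after its value was seen.

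In the ERK cascade, 4 of 16 genes passed, 2 in each direction, beside 8.95% of all genes tested. Rps6ka3, which encodes the ERK-activated kinase RSK2, rose by 0.60 on the log2 scale (SE 0.09, FDR = 0.0144 in edgeR), from 111, 122 and 107 CPM in WT to 173, 174 and 167 CPM in Ocln-KO. Map2k1, which encodes the ERK kinase MEK1, fell by 0.49 (SE 0.10, FDR = 0.0340), from 67.5, 62.3 and 76.4 CPM to 52.2, 46.0 and 49.0 CPM. Rps6ka2, which encodes RSK3, fell by 0.88 (SE 0.16, FDR = 0.0251), from 23.5, 21.0 and 25.9 CPM to 15.6, 11.4 and 11.2 CPM. The genotypes did not overlap for any of these 3 genes, and the median of the list was 0.00.

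Of 14 other ERK targets and feedback genes tested, 1 rose and 0 fell, with a median log2 fold change of 0.19. Spred2, which encodes an inhibitor of Ras signalling, had 75.9, 91.0 and 88.2 CPM in WT libraries and 135, 115 and 107 CPM in Ocln-KO libraries. Its libraries did not overlap between genotypes, and it rose by 0.49 on the log2 scale (SE 0.12, FDR = 0.0442 in edgeR). Its relative Spred1 had a log2 fold change of 0.37 (FDR = 0.0571), and Spry2, the relative of Spry4, had -0.30 (FDR = 0.167). In edgeR 6 of the 14 had an unadjusted p under 0.05, and of these only Spry2 was lower in Ocln-KO. Under total-count scaling 3 genes of this list were called higher. The 7 calls in the pathway lists depended on the WT libraries: without WT replicates 1, 2 and 3 in turn, edgeR's test made 0, 1 and 0 higher calls and 0 lower calls in each case, while 6 lower and 8 to 10 higher genes had an unadjusted p under 0.05. Without Ocln-KO replicate 2, edgeR's test made 2 higher calls and 0 lower calls.

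**Figure D4:**
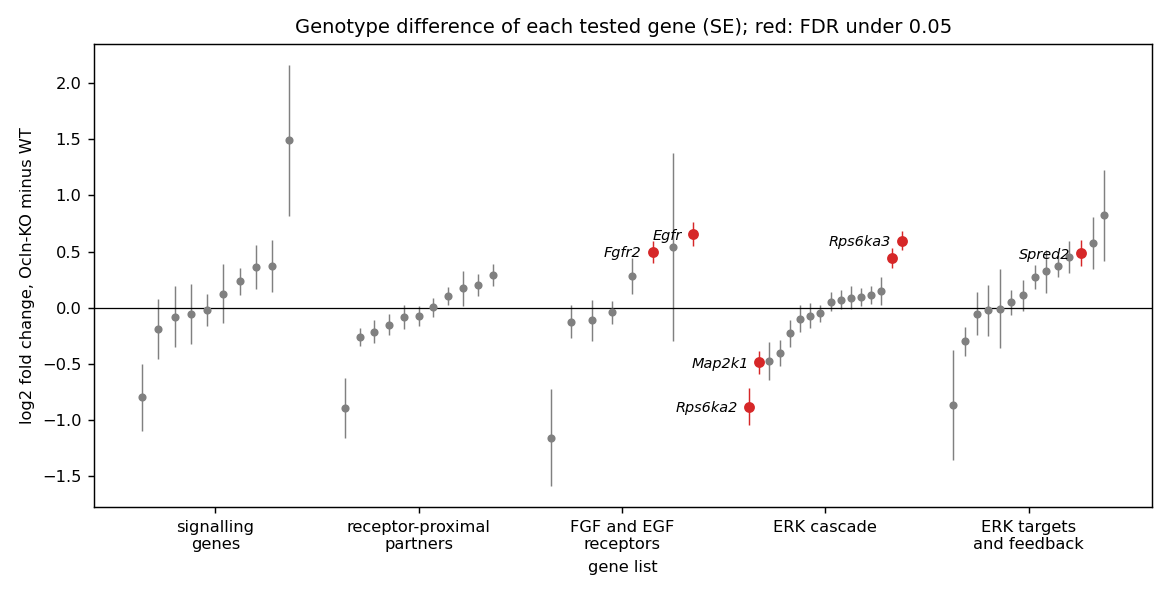
Log2 fold change (Ocln-KO minus WT) with its SE for each tested gene of the 10 signalling genes and of the 4 pathway lists, ordered by value within a list. Red points have an FDR under 0.05 in edgeR's test; there are none among the 10 signalling genes, 2 among the receptors, 4 in the ERK cascade and 1 among the ERK targets.

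Markers of the other cells of the organ differed between the genotypes to varying degrees. Over all genes tested, 8.95% passed an FDR under 0.05 in edgeR and 29.1% had an unadjusted p under 0.05. The summed CPM of 6 epithelial markers ran from 1454 to 1625 in WT and from 1236 to 1609 in Ocln-KO, and 1 of the 6, Krt19, a keratin gene, rose by 0.79 on the log2 scale (FDR = 0.0336 in edgeR). The log2 fold change was negative for 4 of the 6, with a list median of -0.10. Krt8, another keratin gene, had -0.31 (FDR = 0.108) and did not overlap between genotypes. At an unadjusted p under 0.05 there were 2 of the 6, Krt19 and Krt8. Of 4 clear cell markers tested, 3 fell, and the summed level of the list was 71.1 to 87.2 CPM in WT against 34.4 to 48.1 CPM in Ocln-KO. They were the proton pump subunit genes Atp6v0d2 (log2 fold change -1.56, FDR = 0.0201) and Atp6v1b1 (-0.78, FDR = 0.0458) and Foxi1 (-0.77, FDR = 0.0332), a transcription factor gene of proton-secreting cells. The remaining tested marker, Atp6v1g3, was also lower, at -0.66 (FDR = 0.0725), and did not overlap between genotypes. Among basal cell and smooth muscle markers, 1 of 5 rose in each list, Krt14 by 0.58 and Myh11 by 0.77 on the log2 scale (FDR = 0.0276 and 0.0296). At an unadjusted p under 0.05 there were 3 of 5 basal cell markers, all positive (median log2 fold change of the list 0.33). Itga6, another basal cell marker, was negative, at -0.21 (FDR = 0.272). All 5 smooth muscle markers had an unadjusted p under 0.05 and were positive (median 0.52). Of 5 fibroblast and 4 endothelial markers, 0 passed an FDR under 0.05 in edgeR's test, with 2 and 1 at an unadjusted p under 0.05. The 2 fibroblast markers, Dcn and Lum, were higher in Ocln-KO, by 0.55 and 1.46 on the log2 scale. The endothelial marker, Kdr, was lower, at -0.29, while the other 3 endothelial markers were positive. The 4 lower and 4 higher calls among all cell type markers, Ptprc included, became 0 lower and 0 to 1 higher when any WT library was left out, with 6 to 7 lower and 10 to 13 higher at an unadjusted p under 0.05 in edgeR. The part of cell composition in the values of the 10 genes was not tested.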

How the data were processed

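The RNA of whole epididymides was sequenced in 3 libraries per genotype, WT and Ocln-KO. The sample records' tissue field and the study give epididymis, while an extraction protocol among the labels names prefrontal cortex. The authors trimmed the reads, aligned them with HISAT2 (2.0.4 in the submitters' processing notes) to GRCm38, counted them per gene with HTSeq and deposited those raw counts, not normalized. Counting mode, strand setting and the treatment of reads with several alignments are not given in the sources used here.

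The analysis used edgeR 4.0.16 under R 4.3.3. Of 57127 genes listed, 32046 had a count and filterByExpr kept 19691. Libraries were scaled by TMM factors to effective sizes of 31860861 to 37410050, at which 3 counts equal 0.0802 to 0.0942 CPM, a limit that covers counting error only. The genotype term was tested with glmQLFit and glmQLFTest, p-values were adjusted by Benjamini-Hochberg over all genes tested (FDR), and a gene was called at an FDR under 0.05. Each standard error is the size of the log2 fold change over the square root of the F statistic, and intervals use the fit's degrees of freedom. Gene lists were described by counts and medians without a set test. With 3 libraries against 3, exact two-sided permutation p-values start at 0.1 and are not given.

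The genes named are the 10 signalling genes, Nicol1, Ocln, up to 5 genes with an FDR under 0.05 per pathway or segment list, and the cell type markers with an FDR under 0.05, while list genes given with a larger adjusted p were chosen after their values were seen. The 10 genes, the lists and the tests were chosen with earlier results of these data known. Gene spans and transcript starts are from RefSeq on GRCm38.p6, where a span covers all transcripts of a gene and can reach past the starts shown, and exon lengths are from GENCODE on GRCm38. The code was tested on simulated data. Alternatives were DESeq2 1.42.0, limma-voom (limma 3.58.1), RLE factors, total counts only, no filter, a filter of 10 counts in each library, a replicate block, a 2-fold threshold and each library left out in turn. No pair of libraries agreed within sampling noise. Some genes of the lists are counted but not reported here by name. Proteomes were not analysed here.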

Additional observations from a re-analysis of the deposited data

How the results depend on the processing

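With DESeq2, limma-voom, RLE factors, total counts as the only scaling, no filter, a filter of 10 counts in each library, a 2-fold threshold, the replicate block and each of 6 left-out libraries, 0 of the 10 signalling genes were called in either direction, with 0 to 1 lower and 0 to 2 higher at an unadjusted p under 0.05. Of their 129 values under alternatives, 9 reversed. With total-count scaling the log2 fold change was 0.062 for Ptpn6 and 0.025 for Ggt1. Leaving out 1 library at a time, it ran from -0.16 to 0.10 for Ptpn6 (above 0 without WT replicate 3, at 0.033, and without Ocln-KO replicate 3), from -0.13 to 0.36 for Etv5 (below 0 without Ocln-KO replicate 1 and, at -0.044, without WT replicate 3), from -0.40 to 0.030 for Spry4 (above 0 without Ocln-KO replicate 3), from -0.26 to 0.21 for Ovch2 and from -0.38 to 0.21 for Ggt1 (both above 0 without Ocln-KO replicate 1). With 3 libraries per genotype and Etv4 at 4 to 36 counts, small differences could not be resolved.

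Calls over all genes moved more. The 992 lower and 770 higher calls became 1708 and 1604 with DESeq2, 674 and 1175 with total counts, and 335 and 293 with the 2-fold threshold. The share of calls that were higher was 43.7%, and 63.5% with total counts, where the median log2 fold change of all genes was 0.09. With a library left out, there were 19 to 944 lower and 4 to 782 higher calls, the lowest without WT replicate 1. In the pathway lists (2 lower, 5 higher), DESeq2 gave 6 lower, total-count scaling 1 lower and 7 higher, the 2-fold threshold 0 and 0 (8 and 10 at an unadjusted p under 0.05), and left-out libraries 0 to 3 lower and 0 to 5 higher. In the segment, GGT and ADAM lists (1 lower, 2 higher), DESeq2 gave 2 lower, no filter 2 lower and 4 higher, and left-out libraries 0 to 2 lower and 0 to 4 higher. In the cell type lists (4 lower, 4 higher), DESeq2 gave 11 higher, no filter 8 higher, the 2-fold threshold 2 lower and 1 higher, and left-out libraries 0 to 4 lower and 0 to 15 higher. The cause of these shifts was not tested.

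Over all genes tested, the deviations of same-numbered libraries from their genotype means correlated at -0.0525, -0.0315 and -0.00256. Differently numbered libraries ran from -0.0829 to 0.127, so the same-numbered ones did not stand out. With 3 libraries per genotype, such values cannot show whether the numbers mark pairs, and the main fit was unpaired. With the replicate number as a block, 31 genes were lower and 10 higher, and 0 in any of the lists, where 7 lower and 9 higher pathway genes, 2 and 3 segment genes and 6 and 13 cell type genes had an unadjusted p under 0.05.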
